A study of Mus musculus with 6 samples.

Results

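The vomeronasal receptor genes of the mouse were examined as 2 classes, V1R and V2R, in the hippocampus of adult mice that had been injected with ethanol or saline as pups. Members were all genes with a platform symbol of Vmn1r or Vmn2r followed by a number, read from probe sets that carry this symbol alone, with the brightest probe set used where a gene had several. The rule found 163 of the 19938 genes measured, of which 117 were V1R genes and 46 were V2R genes. RefSeq (GRCm38.p6) lists 231 V1R and 126 V2R symbols, and the receptors without a probe set of their own symbol were not analysed here. Only 1 V1R gene and 6 V2R genes had more than 1 probe set of their own.

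Vomeronasal receptors are G protein-coupled receptors through which the vomeronasal organ of the nose detects pheromones and the scent of other animals. V1R proteins sit on neurons of the apical layer of that organ, signal through the G protein subunit Gnai2, have a short extracellular end and bind mostly small molecules such as steroids and volatile compounds. V2R proteins belong to the class C receptors, carry a large extracellular domain that binds peptides and proteins, and sit on basal neurons that use Gnao1. Both classes are encoded in clusters of recently duplicated genes, and a sensory neuron expresses few of them, while the V2R family C members act as broadly expressed partners. The hippocampus has no known vomeronasal sensory neurons.

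In the ethanol group, male C57BL/6J pups received 2 subcutaneous injections of 2.5 g/kg ethanol in saline on postnatal day 4 and again on postnatal day 7. Their sex- and weight-matched littermates received saline on the same days. Whole hippocampus was taken at postnatal day 70, and RNA from 3 non-littermate males was pooled on each Mouse Gene 1.0 ST array, giving 3 ethanol and 3 saline pools from 9 mice each and 18 in all. Values are log2 signals after robust multi-array averaging (RMA) and the spread between arrays is that between pools of animals. The number of arrays limits the precision, and in bulk tissue fewer cells of a type and less RNA per cell cannot be told apart.

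All 163 receptor genes lay below the median level of the probe sets tested, which was 6.79. The V1R genes had a median level of 4.76 over the 6 arrays and ran between 4.15 and 5.83, and the V2R genes had a median of 4.67 and ran between 4.20 and 5.79. Their levels spanned percentile 0.9 to percentile 42.4 of all genes. Omp, the olfactory marker protein that defines mature olfactory and vomeronasal sensory neurons, read 4.71, 4.71 and 4.71 in the ethanol pools and 4.72, 4.74 and 4.73 in the saline pools, which is within the range of the receptors themselves. The hippocampal markers were high, with Camk2a, a kinase of excitatory neurons, at 12.96 and the calcium-binding protein Calb1 at 11.27 as the mean of 6 arrays. All changes below are differences among dim signals, and whether a probe set at this level measures its own transcript was not tested.

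V1R genes tended to read higher in the ethanol pools than in the saline pools. In limma, 18 of 117 (15.4%) were higher and 0 were lower with an unadjusted p under 0.05, where the same threshold called 2.8% of all genes higher and 2.41% lower. Among genes below the median level the background was 4.18% higher and 2.41% lower, and among the 7074 genes inside the receptors' range of levels that belong to no receptor family compared here it was 3.63% higher. The change was above 0 in 99 V1R genes (84.6%), compared with 50.1% of all genes and 55.9% of the dim ones. The equal-variance test named in the methods called 10 V1R genes higher, against 2.67% of all genes. The median V1R change was 0.06 on the log2 scale, with quartiles of 0.01 and 0.09, against 0.00 for all genes and 0.01 for dim genes. No receptor gene passed an adjusted p of 0.05, the lowest adjusted p being 0.931 in limma, and no V1R gene that was called differed by more than 1.2-fold, a size that 0.276% of all genes and 0.279% of dim genes combined with such a p.

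V1R pools did not overlap in 23 genes (19.7%) with higher ethanol values, against 5.35% of all genes and 7.29% of dim genes. They did not overlap in 2 genes with lower ethanol values, Vmn1r205 and Vmn1r229, against 5.09% of all genes and 4.49% of dim genes. Among the genes with p under 0.05, the ethanol and saline pools were apart in 14 of 18, and they overlapped in Vmn1r8, Vmn1r180, Vmn1r210 and Vmn1r74. The plot of called genes by pool shows these separations.

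**Figure D1:**
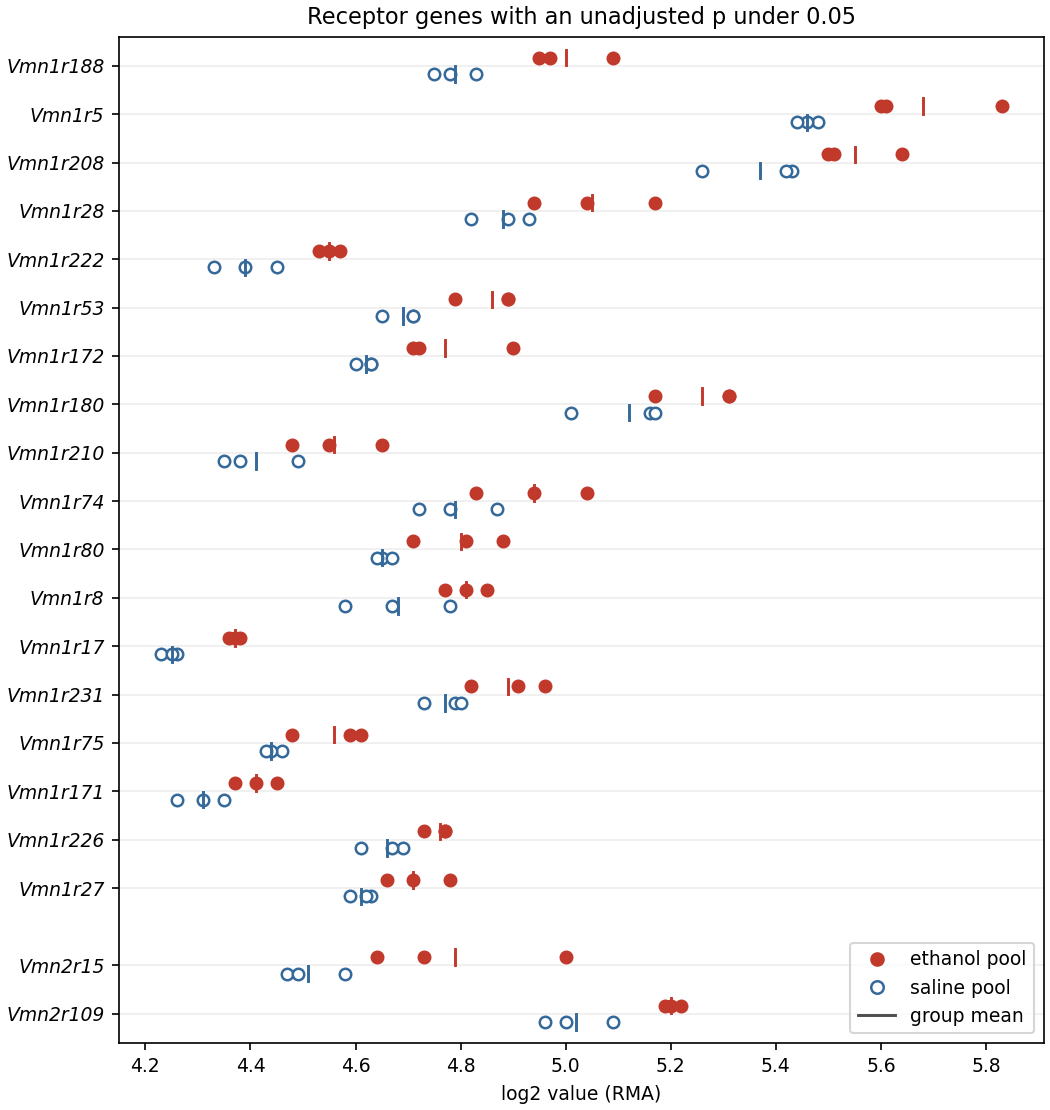
Log2 RMA value (x axis) of the 18 V1R and 2 V2R genes (y axis) with an unadjusted p under 0.05, ordered by change within each class. Each point is 1 pool of 3 mice, filled for ethanol and open for saline, and vertical ticks are group means. Ethanol means lie above saline means in all 20 genes, and the gaps are at most 0.28.

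The 2 V1R genes with the largest change were Vmn1r188, of the V1rh subfamily, and Vmn1r5, of the V1rc subfamily; no ligand is given here for either. Vmn1r188 read 4.97, 5.09 and 4.95 in the ethanol pools and 4.78, 4.75 and 4.83 in the saline pools. The pools were well separated, with a change of 0.22 ± 0.05 (SE, unadjusted p = 0.00183 in limma). Vmn1r5 read 5.61, 5.60 and 5.83 in the ethanol pools and 5.48, 5.46 and 5.44 in the saline pools. Its saline pools were close together and ethanol pool 3 stood above the other 2 ethanol pools, giving 0.22 ± 0.06 (SE, unadjusted p = 0.00711 in limma). Without ethanol pool 3 the change of Vmn1r5 was 0.15, and it was still called.

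A further 3 V1R genes had smaller changes with pools that did not overlap. Vmn1r17, another V1rc member, read 4.36, 4.37 and 4.38 in the ethanol pools and 4.26, 4.23 and 4.25 in the saline pools. That gave 0.12 ± 0.04 (SE, unadjusted p = 0.00815 in limma), with the narrowest spread within groups among the called genes. Vmn1r222, of the V1rh subfamily, read 4.57, 4.53 and 4.55 in the ethanol pools and 4.33, 4.45 and 4.39 in the saline pools, a change of 0.16 ± 0.04. Vmn1r53, a V1rb receptor, read 4.79, 4.89 and 4.89 in the ethanol pools and 4.71, 4.71 and 4.65 in the saline pools, a change of 0.16 ± 0.04 as well. These 3 genes, Vmn1r188 and Vmn1r5 were the 5 of 18 V1R genes still called whichever single pool was left out.

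Vmn1r208 was higher in its brighter probe set alone. In that probe set it read 5.50, 5.64 and 5.51 in the ethanol pools and 5.43, 5.26 and 5.42 in the saline pools, a change of 0.18 ± 0.06. Its second probe set changed by 0.02 ± 0.05 (unadjusted p = 0.656 in limma), so the 2 probe sets of this gene did not give the same result. Vmn1r28 read 4.94, 5.04 and 5.17 in the ethanol pools and 4.93, 4.89 and 4.82 in the saline pools, where ethanol pool 1 lay almost at the highest saline pool. Its change of 0.17 ± 0.06 was 0.11 and no longer called without ethanol pool 3, and it was not called without saline pool 3 or by the methods' t-test either. Vmn1r172 read 4.90, 4.72 and 4.71 in the ethanol pools and 4.63, 4.60 and 4.63 in the saline pools, and its 0.15 ± 0.06 rested in part on ethanol pool 1, without which it was 0.09 and not called. Vmn1r210, of the V1rh subfamily, read 4.55, 4.65 and 4.48 in the ethanol pools and 4.35, 4.38 and 4.49 in the saline pools. The pools overlapped, and its change of 0.15 ± 0.06 was called in 2 of the 6 fits with a pool left out.

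The other 9 called V1R genes changed by 0.10 to 0.15. They were Vmn1r74, Vmn1r75 and Vmn1r80 of the V1rg subfamily, Vmn1r171 and Vmn1r180 of V1rd, Vmn1r226 and Vmn1r231 of V1re, and Vmn1r8 and Vmn1r27 of V1rc. Vmn1r21, a V1rc receptor, and Vmn1r201, a V1ri receptor, were not called, at 0.11 ± 0.05 (unadjusted p = 0.0515 in limma) and 0.20 ± 0.09 (unadjusted p = 0.0522).

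Vmn1r188 and Vmn1r222 lie at the 2 ends of 1 gene cluster and their start regions are nearly the same. The windows are shown because near-copies are common among receptors and bear on whether 2 members are separate measurements, and whether their probes share sequence was not tested. Each runs 5′ to 3′ over 250 bases before the start of the RefSeq gene model and 50 bases from it, on the strand of the gene, in GRCm38.p6, and the capitals mark the start codon at the first base of the model. Vmn1r188 is at chr13:22087628-22087927 on the plus strand and Vmn1r222 at chr13:23232992-23233291 on the minus strand.
Vmn1r188: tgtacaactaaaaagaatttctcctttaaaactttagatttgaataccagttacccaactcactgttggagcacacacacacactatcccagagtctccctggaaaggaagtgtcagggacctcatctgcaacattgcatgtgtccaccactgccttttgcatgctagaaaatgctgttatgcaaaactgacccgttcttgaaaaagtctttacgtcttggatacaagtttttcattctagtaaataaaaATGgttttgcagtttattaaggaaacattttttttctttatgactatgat
Vmn1r222: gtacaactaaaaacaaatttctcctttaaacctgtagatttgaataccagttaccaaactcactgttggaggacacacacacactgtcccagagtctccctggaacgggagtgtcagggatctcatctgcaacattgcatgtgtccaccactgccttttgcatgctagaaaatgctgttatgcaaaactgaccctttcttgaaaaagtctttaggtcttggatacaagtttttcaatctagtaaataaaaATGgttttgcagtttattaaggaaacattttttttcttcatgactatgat
The 2 windows are 95% identical. Over the 103 V1R genes with a window, the median identity to the most similar other V1R window was 72.8%, and 10 genes had a partner at 90% or more.

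Calls were spread over V1R subfamilies, which are given by the letter of the older V1r symbol. V1rc had 5 calls among 27 genes, V1rh 4 of 17, V1rd 3 of 12, V1rg 3 of 11, V1re 2 of 13 and V1rb 1 of 6. The threshold called 2.8% of all genes and 4.18% of dim genes higher, and 50.1% and 55.9% of them were above 0. V1ra, V1rf and V1ri had 0 calls among 8, 5 and 9 genes, although 7, 5 and 8 of their members were above 0. The median change was highest in V1rc at 0.08 and was 0.07 in V1rh and V1re, and it was lowest in V1rf at 0.01. The subfamilies are small, and neither their differences nor whether any of them exceeds those shares was tested.

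**Figure D2:**
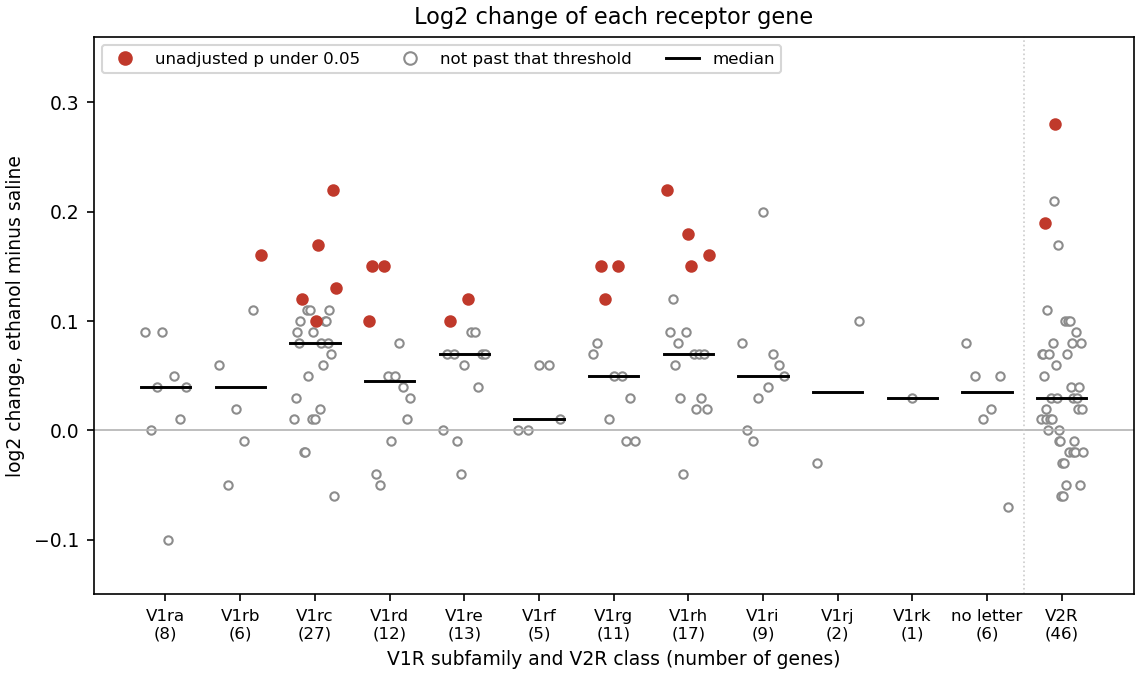
Log2 change, ethanol minus saline (y axis), of each V1R gene by subfamily and of the V2R genes (x axis, number of genes in brackets), with called genes filled and a bar at the median. Called V1R genes occur in V1rb, V1rc, V1rd, V1re, V1rg and V1rh, and the V2R genes spread around a lower median of 0.03.

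Calls also lay in 6 of the chromosomal clusters of V1R genes, which were drawn from gene positions in RefSeq. Of all genes 2.8% were called higher and 50.1% were above 0, and of dim genes 4.18% and 55.9%. Whether any cluster exceeds those shares was not tested. The cluster from Vmn1r4 to Vmn1r30 had 5 calls among 22 genes, and the cluster from Vmn1r188 to Vmn1r222 had 4 among 27, of which 25 were above 0. The clusters from Vmn1r170 to Vmn1r183 and from Vmn1r66 to Vmn1r89 had 3 each, among 9 and 20 genes, and that from Vmn1r224 to Vmn1r237 had 2 among 14. The cluster from Vmn1r40 to Vmn1r54, which holds V1ra and V1rb genes, had 1 among 14, and the 5 genes from Vmn1r32 to Vmn1r38 had 0 although all 5 were above 0. Deletion of a V1ra and V1rb gene cluster alters male sexual and maternal aggressive behaviour in mice.

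Of the 4 brightest V1R genes, Vmn1r5 was called and the other 3 were not. Vmn1r4, a V1rc receptor and the brightest, read 5.83, 5.78 and 6.00 in the ethanol pools and 5.80, 5.81 and 5.77 in the saline pools, so the pools overlapped. Its change was 0.07 ± 0.06. Vmn1r33 and Vmn1r36, 2 further V1rc receptors, changed by 0.10 ± 0.06 and 0.08 ± 0.07. The dimmest, Vmn1r58 of the V1rd subfamily, averaged 4.15 and changed by 0.08 ± 0.05. Neither it nor these 3 bright genes were called.

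The lowest V1R change was that of Vmn1r48, at -0.10 ± 0.16, and it came from 1 array. It read 4.82, 4.86 and 4.85 in the ethanol pools and 5.40, 4.74 and 4.70 in the saline pools, with saline pool 1 far above the other 5. Without saline pool 1 the change was 0.13. Vmn1r47, whose start window is 100% identical to that of Vmn1r48, read 5.23, 5.13 and 5.35 in the ethanol pools and 5.12, 5.15 and 5.18 in the saline pools, so saline pool 1 did not stand out there. Vmn1r86 and Vmn1r6 followed at -0.07 ± 0.06 and -0.06 ± 0.04.

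The 3 V1R receptors named next have known ligands and were not called. Vmn1r49 (V1rb2), named here for its known response to 2-heptanone and outside the rule for naming, read 4.37, 4.41 and 4.35 in the ethanol pools and 4.44, 4.34 and 4.37 in the saline pools. The V1rj receptors Vmn1r85 and Vmn1r89, which detect sulfated steroids and were also chosen for that reason after their values were seen, changed by -0.03 ± 0.05 and 0.10 ± 0.07.

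V2R genes showed a weaker tendency. At the same threshold 2 of 46 (4.35%) were higher and 0 were lower, against 2.8% and 2.41% of all genes and 4.18% and 2.41% of dim genes, and the change was above 0 in 32 (69.6%). Their median change was 0.03, with quartiles of -0.01 and 0.07. The share called was therefore near the background of dim genes. Pools did not overlap in 6 genes (13.0%) with higher ethanol values, against 5.35% of all genes and 7.29% of dim genes, and in 0 with lower ones, against 5.09% and 4.49%. Without ethanol pool 3, 2 V2R genes were higher and 2 were lower, with no share of all genes given for that fit.

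The 2 called V2R genes were Vmn2r15 and Vmn2r109, for which no ligand is given here. Vmn2r15 read 4.64, 4.73 and 5.0 in the ethanol pools and 4.47, 4.49 and 4.58 in the saline pools. Ethanol pool 3 was the highest, and the change of 0.28 ± 0.08 (SE, 1.21-fold, unadjusted p = 0.00991 in limma) was the largest of all 163 receptors. It was 0.18 without ethanol pool 3, still called in limma. Vmn2r109 read 5.22, 5.19 and 5.20 in the ethanol pools and 5.09, 5.0 and 4.96 in the saline pools, so its ethanol pools were close together and the change was 0.19 ± 0.05 (SE, unadjusted p = 0.00293 in limma).

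The start windows of the 2 called V2R genes are printed because they lie in different clusters and differ in sequence, unlike the V1R pair above. They are drawn in the same way, with Vmn2r15 at chr5:109297507-109297806 and Vmn2r109 at chr17:20564707-20565006, both on the minus strand of GRCm38.p6, and the start codon in capitals.
Vmn2r15: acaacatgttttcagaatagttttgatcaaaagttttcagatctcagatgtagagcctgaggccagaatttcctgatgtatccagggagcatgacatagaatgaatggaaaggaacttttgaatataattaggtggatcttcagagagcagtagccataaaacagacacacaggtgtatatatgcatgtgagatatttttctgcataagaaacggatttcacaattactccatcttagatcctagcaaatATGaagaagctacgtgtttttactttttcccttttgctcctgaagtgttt
Vmn2r109: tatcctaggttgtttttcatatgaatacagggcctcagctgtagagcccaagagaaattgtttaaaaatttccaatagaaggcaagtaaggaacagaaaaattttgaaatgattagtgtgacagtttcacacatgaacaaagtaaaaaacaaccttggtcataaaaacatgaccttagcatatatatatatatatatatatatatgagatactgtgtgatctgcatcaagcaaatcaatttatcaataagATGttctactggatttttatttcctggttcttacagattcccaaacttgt
These 2 windows are 55.1% identical, and each has a closer relative elsewhere, Vmn2r9 for Vmn2r15 at 87.8% and Vmn2r110 for Vmn2r109 at 77.8%. A V2R window had a median identity of 83.0% to its most similar V2R, and 9 of 43 genes had a partner at 90% or more.

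Letters of the start windows were counted for both classes and for all genes of the RefSeq table, with no test. Searched on both strands, TATAAA was in 37.9% of 103 V1R windows, in 30.2% of 43 V2R windows and in 14.2% of 27025 windows of all genes. TAATTA, the core of many homeodomain sites, was in 10.7%, 11.6% and 5.3% of V1R, V2R and all windows. The gene model began at the start codon in 80.6% of V1R and 88.4% of V2R genes, against 6.8% of all, so for most receptors the last bases of the window are coding sequence. Most receptor windows are thus set on the start codon and are not the same kind of region as most windows of all genes. The median GC content was 35.3% for V1R, 38.7% for V2R and 52.7% for all genes. The part of window position and GC content in the shares above was not tested. Of the 15 called V1R genes with a window, 7 (46.7%) held TATAAA and 1 (6.7%) held TAATTA, and of the 2 called V2R genes 0 held TATAAA and 1 held TAATTA.

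No other V2R gene in the clusters of the called ones passed the threshold. In the cluster from Vmn2r9 to Vmn2r17 all 6 measured genes were above 0, including Vmn2r14 at 0.21 ± 0.12 (unadjusted p = 0.109 in limma), which read 5.41, 5.57 and 5.90 in the ethanol pools and 5.25, 5.47 and 5.51 in the saline pools. In the cluster from Vmn2r19 to Vmn2r27, 1 of 5 was above 0, and in that from Vmn2r65 to Vmn2r79, 6 of 10. Of all genes 50.1% and of dim genes 55.9% were above 0, and differences between clusters were not tested. Vmn2r18 changed by 0.17 ± 0.08 (unadjusted p = 0.0745 in limma). The only family C member measured was Vmn2r1, one of the broadly expressed V2R partners, which read 4.38, 4.44 and 4.44 in the ethanol pools and 4.42, 4.41 and 4.40 in the saline pools, with a change of 0.01 ± 0.04.

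The brightest V2R genes were Vmn2r115, Vmn2r26, Vmn2r14 and Vmn2r111, at mean levels of 5.79, 5.53, 5.52 and 5.45. Vmn2r115, a mouse receptor for the juvenile tear peptide ESP22, read 5.77, 5.98 and 5.72 in the ethanol pools and 5.75, 5.78 and 5.73 in the saline pools, and the pools overlapped. Vmn2r26 (V2r1b), which responds to peptides that bind major histocompatibility molecules, read 5.56, 5.53 and 5.41 in the ethanol pools and 5.62, 5.60 and 5.49 in the saline pools, the lowest V2R change with Vmn2r52, both -0.06 ± 0.06. Vmn2r60 and Vmn2r93 followed at -0.05 ± 0.09 each. Vmn2r120, the dimmest at 4.20, changed by 0.03 ± 0.04.

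The difference between V1R and V2R was not tested and is given pool by pool. Averaged over the class and taken from the saline mean of each gene, V1R genes stood at 0.028, 0.061 and 0.083 in the ethanol pools and at 0.020, -0.020 and 0.000 in the saline pools. All 3 ethanol pools lay above all 3 saline pools, but ethanol pool 1 was only just above saline pool 1. V2R genes stood at 0.008, 0.037 and 0.077 in the ethanol pools and at 0.018, -0.021 and 0.003 in the saline pools, where ethanol pool 1 lay below saline pool 1. V1R minus V2R was 0.020, 0.024 and 0.006 in the ethanol pools and 0.002, 0.001 and -0.003 in the saline pools.

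**Figure D3:**
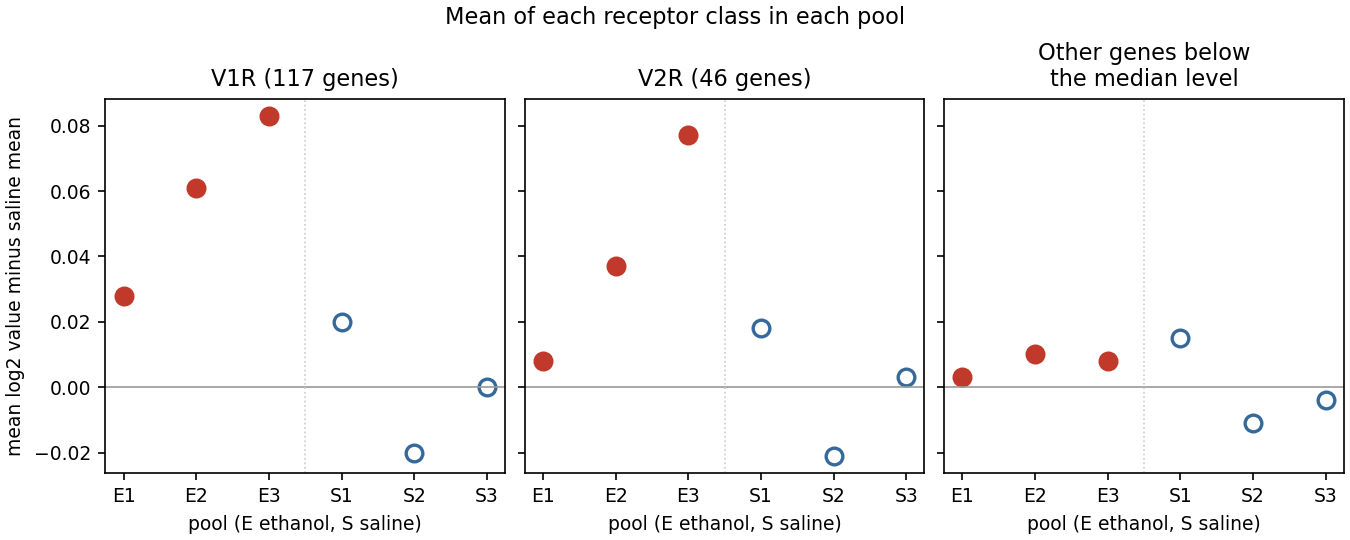
Mean log2 value of each class minus the saline mean of each gene (y axis) in the 3 ethanol pools (E1 to E3, filled) and the 3 saline pools (S1 to S3, open), with the other genes below the median level at right. V1R values run from 0.028 to 0.083 in ethanol pools and from -0.020 to 0.020 in saline pools, whereas the other dim genes run from 0.003 to 0.010 in ethanol pools and from -0.011 to 0.015 in saline pools.

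Both classes followed the same arrays. Ethanol pool 3 gave the highest value in 47 V1R and 18 V2R genes, and saline pool 2 gave the lowest in 41 V1R and 14 V2R genes. Among the 10027 dim genes, saline pool 2 was lowest in 2356, the most of any array. Ethanol pool 3 was highest in 1959 of them, fewer than saline pool 1 at 2197 and ethanol pool 2 at 2127. The lower quartile of an array was 4.77, 4.80 and 4.79 in the ethanol pools and 4.80, 4.75 and 4.76 in the saline pools. Leaving out saline pool 2 left 9 V1R genes higher and 1 lower, and leaving out ethanol pool 2 left 11 higher. The shares of all genes called in the refits of this paragraph are not given here. Median centring of the arrays over all probe sets left 9 V1R genes and 2 V2R genes higher, with medians of 0.043 and 0.013 where the median of all genes moved by the same step, to -0.015. The part of these array differences in the shift was not tested.

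**Figure D4:**
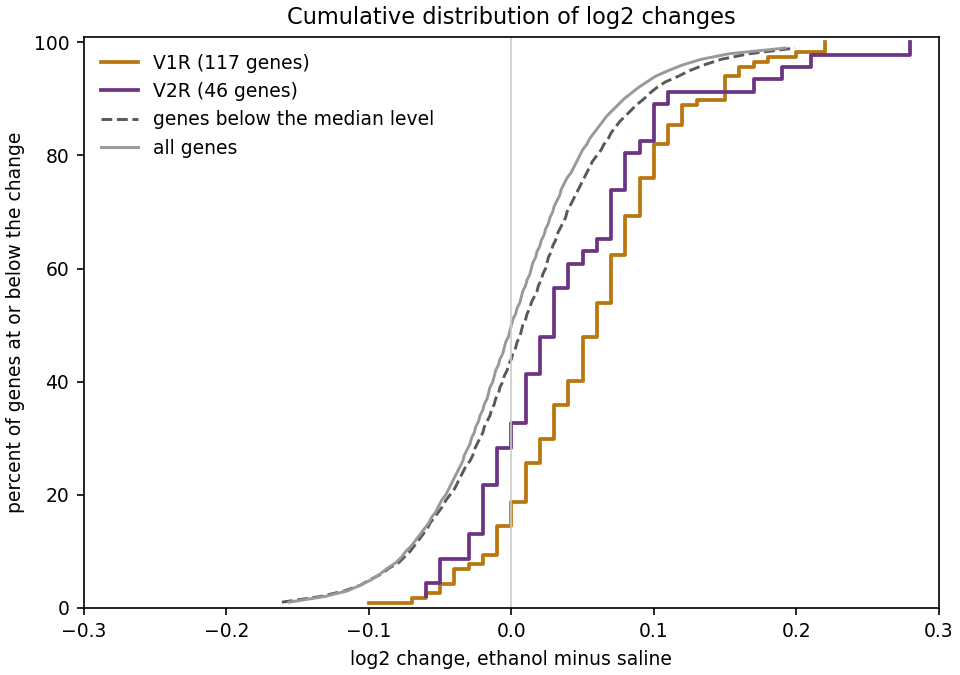
Cumulative percent of genes (y axis) at or below a given log2 change, ethanol minus saline (x axis), for the 117 V1R genes, the 46 V2R genes, all genes and the genes below the median level, the last 2 drawn from percentiles 1 to 99. The V1R curve lies to the right of the curve of dim genes over most of its length, with a median of 0.06 against 0.01. The V2R curve lies between them from its lowest change, -0.06, up to a change of about 0.1.

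Other chemosensory receptors gave values on the same side. Among 1015 olfactory receptor genes 86 (8.47%) were higher and 7 (0.69%) lower, with a median change of 0.03. Among 34 bitter taste receptors 4 (11.76%) were higher and 0 lower, with a median of 0.02. The same threshold called 2.8% of all genes higher and 2.41% lower. None of the 13 trace amine-associated receptors measured was called in limma at the unadjusted threshold, and their median was 0.03, with the brightest, Taar8c and Taar7d, at 0.00 ± 0.08 and -0.01 ± 0.06. Pools did not overlap, with higher ethanol values, in 13.6% of olfactory, 20.6% of bitter taste and 15.4% of trace amine-associated receptors. The V1R share was 19.7% and that of all genes 5.35%. Pools were apart with lower ethanol values in 21 of 1015, 0 of 34 and 0 of 13 genes of these families. That was so in 5.09% of all genes and 4.49% of dim genes. The change was above 0 in 69.8% of olfactory, 64.7% of bitter taste and 76.9% of trace amine-associated receptors, against 84.6% of V1R genes. The differences between these families and V1R were not tested.

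The rest of the vomeronasal pathway was mostly without calls, at a threshold that called 2.8% of all genes higher and 2.41% lower. Whether 1 call in a list this short exceeds those shares was not tested. Of 13 measured genes of vomeronasal signal transduction, 1 was higher and 0 lower: the phospholipase Plcb4 read 9.42, 8.78 and 8.69 in the ethanol pools and 8.60, 8.62 and 8.52 in the saline pools, with ethanol pool 1 highest and a change of 0.39 ± 0.16. Gnao1 and Gnai2, the V2R and V1R G proteins and both abundant in brain, averaged 12.37 and 11.63 and changed by -0.01 ± 0.04 and 0.02 ± 0.05. The channel gene Trpc2, which carries the signal of vomeronasal neurons, was not analysed here. None of the 9 measured H2-Mv genes, class Ib molecules found with V2R receptors, was called (H2-M10.2 at -0.11 ± 0.06 and H2-M9 at -0.10 ± 0.07), and none of 4 formyl peptide receptors, of which the brightest, Fpr-rs3 and Fpr-rs6, changed by 0.02 ± 0.08 and 0.13 ± 0.08.

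At the same threshold, which called 2.8% of all genes higher and 2.41% lower, 1 of 4 measured pheromone ligands was higher. It was the urinary protein gene Mup3, at 0.15 ± 0.06, while Esp1 changed by 0.04 ± 0.06. Of 12 transcription factors of vomeronasal and olfactory neuron development, 0 were higher and 1 was lower: Neurod1, a neurogenic factor also active in hippocampal granule cells, at -0.16 ± 0.06. The 2 most abundant, Meis2 and Lhx2, changed by -0.11 ± 0.07 and 0.01 ± 0.04. Of 18 class C receptor genes related to V2R, 1 was higher, the sweet and umami taste subunit Tas1r3 at 0.15 ± 0.05, and 0 were lower. The abundant GABA-B subunits Gabbr1 and Gabbr2 changed by 0.00 ± 0.04 and 0.06 ± 0.05.

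Markers of neighbouring tissues were read in the same arrays, where the threshold called 2.8% of all genes higher and 2.41% lower. Of 10 measured markers of olfactory and vomeronasal sensory neurons, 6 lay below the median level and 0 were called, and Cnga2 and Cnga4, channel subunits of olfactory neurons, averaged 4.31 and 4.39. The most abundant of them, Gnal and Gng13, which the brain also expresses, averaged 10.19 and 9.01. Of 14 markers of the thalamus 11 were higher, with a median of 0.41 and a mean shift of 0.741, 0.306 and 0.141 in the ethanol pools and 0.016, 0.003 and -0.019 in the saline pools. Ramp3, Synpo2, Prkcd and Tcf7l2 were higher by 0.76 ± 0.26, 0.72 ± 0.22, 0.67 ± 0.22 and 0.59 ± 0.14, and the most abundant, Calb2 and Ptpn3, changed by 0.20 ± 0.06 and 0.08 ± 0.04. The thalamus list was chosen with earlier results of these data known, so its count is not independent of that choice. It includes Tcf7l2 and Synpo2, which the paper reports as higher after ethanol on these arrays. Of 16 markers of the choroid plexus 3 were higher, with a median of 0.50 and a mean shift of 1.06, -0.279 and 0.655 in the ethanol pools and -0.151, -0.041 and 0.191 in the saline pools. The 3 were Kl, Steap1 and Kcne2, at 0.52 ± 0.22, 0.50 ± 0.20 and 0.45 ± 0.19, and the most abundant, Ttr and Kcnj13, changed by 0.21 ± 0.15 and 0.52 ± 0.37. Ethanol pool 1 was the highest for both lists, whereas it was the lowest of the ethanol pools for V1R and V2R genes. None of the 12 measured hippocampal neuron markers was called. The part of these markers in the receptor values was not tested.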

How the data were processed

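Gene expression was measured on Mouse Gene 1.0 ST arrays in 3 ethanol and 3 saline pools. The authors summarised probes by gene with robust multi-array averaging (RMA), and the deposited log2 values were used without further normalization. Neither an RMA version nor a build for the platform annotation was found in the sources used. Of 35556 probe sets, the 23410 with at least 1 platform gene symbol were tested, two-sided and without covariates, with limma 3.58.1 (R 4.3.3; lmFit, then eBayes), with Benjamini-Hochberg adjustment over all 23410. Genes were called at an unadjusted p under 0.05, after the 2-group ANOVA of the methods, whose equal-variance form is called the methods' t-test here. Standard errors are those of limma. With 3 pools a group, the smallest p of an exact two-sided permutation test is 0.1, so none was run. The procedure was tested on simulated data.

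Members and gene lists were chosen with earlier results of these data known. The genes named are those the paper names for expression, every called receptor (up to 8 per class, by size of change, in full), the 3 lowest changes, the 4 brightest and the dimmest per class, and in each list the called genes (up to 4) and the 2 most abundant. Vmn1r17, given in full, Vmn1r21, Vmn1r201, Vmn1r205, Vmn1r229, Vmn1r47, Vmn2r18 and Vmn2r1 were chosen after their values were seen, as were receptors with known ligands. Clusters were chained from V1R, V2R and pseudogene symbols together in RefSeq GRCm38.p6. A new cluster began where neighbouring gene starts lay over 1000000 bases apart, and each cluster was then split by class. Start windows come from RefSeq GRCm38.p6, and identity was computed with Biopython 1.88. Figures were drawn with matplotlib 3.10.9. Alternatives covered the test, scaling, filters, probe set choice, variance model, array weights, a replicate block and each pool left out.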

Additional observations from a re-analysis of the deposited data

How the results depend on the processing

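The count of V1R genes called higher, 18 as reported, was 10 under the methods' t-test (8 of the 18 among them), 9 with median centring (all of them among the 18), 12 with quantile normalization and 0 when a change over 1.2-fold was also required. With 1 pool left out it ranged from 9 to 18, the lowest without saline pool 2 and 11 without ethanol pool 2. The count of V2R genes called higher, 2 as reported, was 1 with the 1.2-fold requirement (Vmn2r15) and ranged from 2 to 6 with 1 pool left out, reaching 6 without ethanol pool 1 and without saline pool 1, with 2 lower calls without ethanol pool 3. The methods' t-test called 3 V2R genes higher, with Vmn2r109 among them and Vmn2r15 not. It called 2.67% of all genes higher. For the other alternatives the share of all genes called is not given here, so their counts stand without a background. The median change stayed above 0 in both classes under every alternative run, between 0.041 and 0.075 for V1R and between 0.013 and 0.034 for V2R; the median of all genes was itself -0.015 with centring and -0.003 with quantile normalization. The log2 change of Vmn1r48, -0.102 with all pools, ranged from -0.225 to 0.126 with 1 pool left out, and its sign turned without saline pool 1. Correlations between same-numbered pools were -0.049, -0.022 and 0.059, and those between pools of different numbers ran from -0.18 to 0.167. These values gave no sign of pairing by number but are too few to exclude it. With the number as a block 16 V1R genes (12 of the 18) and 3 V2R genes were higher. A filter for probe sets above the median level left no receptor gene. Among the called genes, some changes moved by about 1.5 times or more when 1 pool was left out. Vmn1r172 fell to 0.09 without ethanol pool 1, Vmn1r180 to 0.09 without saline pool 3 and Vmn1r8 to 0.09 without saline pool 2. Vmn1r74 fell to 0.09 without ethanol pool 3. As given above, Vmn1r5, Vmn1r28 and Vmn2r15 also moved without ethanol pool 3. The causes were not tested.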

Other observations

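Probe sets that carry several receptor symbols were left out of the classes because they name no single gene. The 28 probe sets of several V1R symbols had a median change of 0.04, with 24 above 0 and 0 called in either direction. Averaged and taken from the saline mean, these 28 stood at -0.004, 0.052 and 0.07 in the ethanol pools. In the saline pools they stood at 0.053, -0.037 and -0.016. Ethanol pools 1 and 2 thus lay below saline pool 1, unlike in the V1R genes of the class. The 36 probe sets of several V2R symbols had a median change of 0.02, with 24 above 0, 1 higher and 0 lower. The threshold called 2.8% of all genes higher and 2.41% lower. The 4 V2R pseudogene probe sets had a median change of 0.04 and the 1 V1R pseudogene probe set changed by 0.09, none of them called. The 2 probe sets of Vmn2r113 hold the same 6 values. These probe sets were read with limma as in the main comparison.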
